A study of Mus musculus with 12 samples.

Results

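Macrophages in quadriceps muscle were followed through 10 marker genes, Cd68, Adgre1, Lyz2, Csf1r, Cd14, Ctss, Mrc1, C1qa, C1qb and Cd163. Members were all probe sets whose symbol in the array annotation is one of these genes, and there were 14 of them among 22690 probe sets (10 of 12393 genes with a probe set of their own). Csf1r and C1qb had 3 probe sets each and the other genes 1. The 12 arrays fell into 4 groups of 3 and held quadriceps RNA of C57Bl/6J mice. The combination group was trained on a treadmill and received GW1516 (GW), which activates PPARδ, a nuclear receptor that controls fat oxidation in muscle, at a dose of 5 mg/kg every day. The exercise group was trained and received vehicle, the GW group was sedentary and received the drug at the same dose, and the vehicle group was sedentary and received vehicle. Each treatment lasted 4 weeks. Every array was made from a pool of RNA of 3 mice. A group therefore stands for 9 mice, and p-values measure the spread between pools. The sex and age of the mice are not given in the sources used here.

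Muscle holds resident macrophages between its fibres, and more enter from blood monocytes after damage. They live on signals through the receptor of colony stimulating factor 1, take up debris and scavenged proteins into lysosomes, and make complement C1q. Depending on their state they can present antigen or help fibres regenerate. In RNA of whole muscle, a change in the number of macrophages and a change in RNA per macrophage cannot be told apart.

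The tissue label was borne by the muscle fibre markers, all 13 of which had a probe set at or above the 93.1st percentile of mean signal. Signals are MAS5 values on a linear scale. The 95th percentile of bacterial control probe sets, 23.5, served as background. Of the 14 macrophage probe sets, 11 lay above it on 12 of 12 arrays. Cd68 did so on 11, Cd14 on 9 and Cd163 on 8, so the lower values of these genes are near background. Two-sided tests with limma used 13575 probe sets past a filter on low signal, and all 14 members passed it on their mean over all arrays. Median signals per array lay between 48.3 and 57.2. Those of the exercise arrays (54 to 57.2) all lay above those of the vehicle arrays (48.3 to 53). GW array 1 correlated slightly less with its own group than with the other groups (mean r of 0.95 and 0.951), as did GW array 2 (0.957 and 0.963).

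Promoter windows, 250 bases before to 50 after the start of the gene, were examined for 6 of the 10 genes (RefSeq, GRCm38.p6). Those of Adgre1, C1qa, Csf1r and Cd14 were left out, so the counts below do not cover these genes. Lyz2, Ctss and C1qb are shown because, of these 6, they held the probe sets whose signals followed those of the other markers most closely over the arrays. For C1qb this was 1417063_at (Pearson r = 0.86), while its other probe sets followed them less (0.47 and 0.53). Cd163 is shown because its signal followed them least. Capitals mark GGAAGT on either strand (ACTTCC on the reverse), which holds the core recognised by the ETS factors, among them PU.1, a regulator that macrophages need to develop. The motif was chosen with these sequences in view.
Lyz2 (chr10:117282223-117282522, strand -): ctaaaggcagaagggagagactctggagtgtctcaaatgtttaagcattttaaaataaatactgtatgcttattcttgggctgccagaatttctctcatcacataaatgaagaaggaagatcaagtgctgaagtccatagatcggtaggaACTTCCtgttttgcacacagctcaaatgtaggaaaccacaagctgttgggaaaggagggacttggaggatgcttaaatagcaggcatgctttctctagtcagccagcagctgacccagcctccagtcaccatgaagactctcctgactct
Ctss (chr3:95526536-95526835, strand +): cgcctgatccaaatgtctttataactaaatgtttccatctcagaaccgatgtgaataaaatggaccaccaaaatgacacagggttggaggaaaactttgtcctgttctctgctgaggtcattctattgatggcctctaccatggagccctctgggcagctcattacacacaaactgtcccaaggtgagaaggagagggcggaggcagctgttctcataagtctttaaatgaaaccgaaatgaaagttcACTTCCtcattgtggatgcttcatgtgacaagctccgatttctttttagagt
C1qb (chr4:136886151-136886450, strand -): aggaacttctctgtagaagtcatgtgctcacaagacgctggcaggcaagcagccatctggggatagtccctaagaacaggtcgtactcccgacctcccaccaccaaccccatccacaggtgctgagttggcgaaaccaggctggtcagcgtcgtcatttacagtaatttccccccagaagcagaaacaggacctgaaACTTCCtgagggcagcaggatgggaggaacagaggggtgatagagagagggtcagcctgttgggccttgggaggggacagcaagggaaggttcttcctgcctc
Cd163 (chr6:124304401-124304700, strand +): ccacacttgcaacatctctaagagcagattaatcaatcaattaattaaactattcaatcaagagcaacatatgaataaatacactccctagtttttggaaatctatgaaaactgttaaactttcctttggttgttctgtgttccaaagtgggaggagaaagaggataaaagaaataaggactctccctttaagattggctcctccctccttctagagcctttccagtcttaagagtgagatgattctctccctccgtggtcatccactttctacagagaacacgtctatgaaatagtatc
The letters occurred in the windows of 5 of the 6 genes (Cd68 and Mrc1 too), and in 23.8% of 32851 windows of the same length over all genes. The longer GAGGAAGT, which overlaps it, was found in Ctss alone among the 6 and in 3.2% of all windows. These matches describe letters in the windows and are not evidence of binding.

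No macrophage probe set passed an adjusted p of 0.05 in any of 8 comparisons (limma). The share of all probe sets called was 0.155% for the combination against vehicle, 0.0147% for exercise against vehicle and 0.0958% for GW against vehicle. It was 0.162% for the combination against exercise, 0% for the combination against GW and 0% for the interaction, in which the change with GW in sedentary mice is subtracted from the change with GW in trained mice. For training averaged over both drug states it was 0.0147%, and for the drug averaged over both training states 0.317%. The pools within a group spread widely, and the markers varied together from pool to pool. The plot of signals by group shows this for each probe set.

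**Figure D1:**
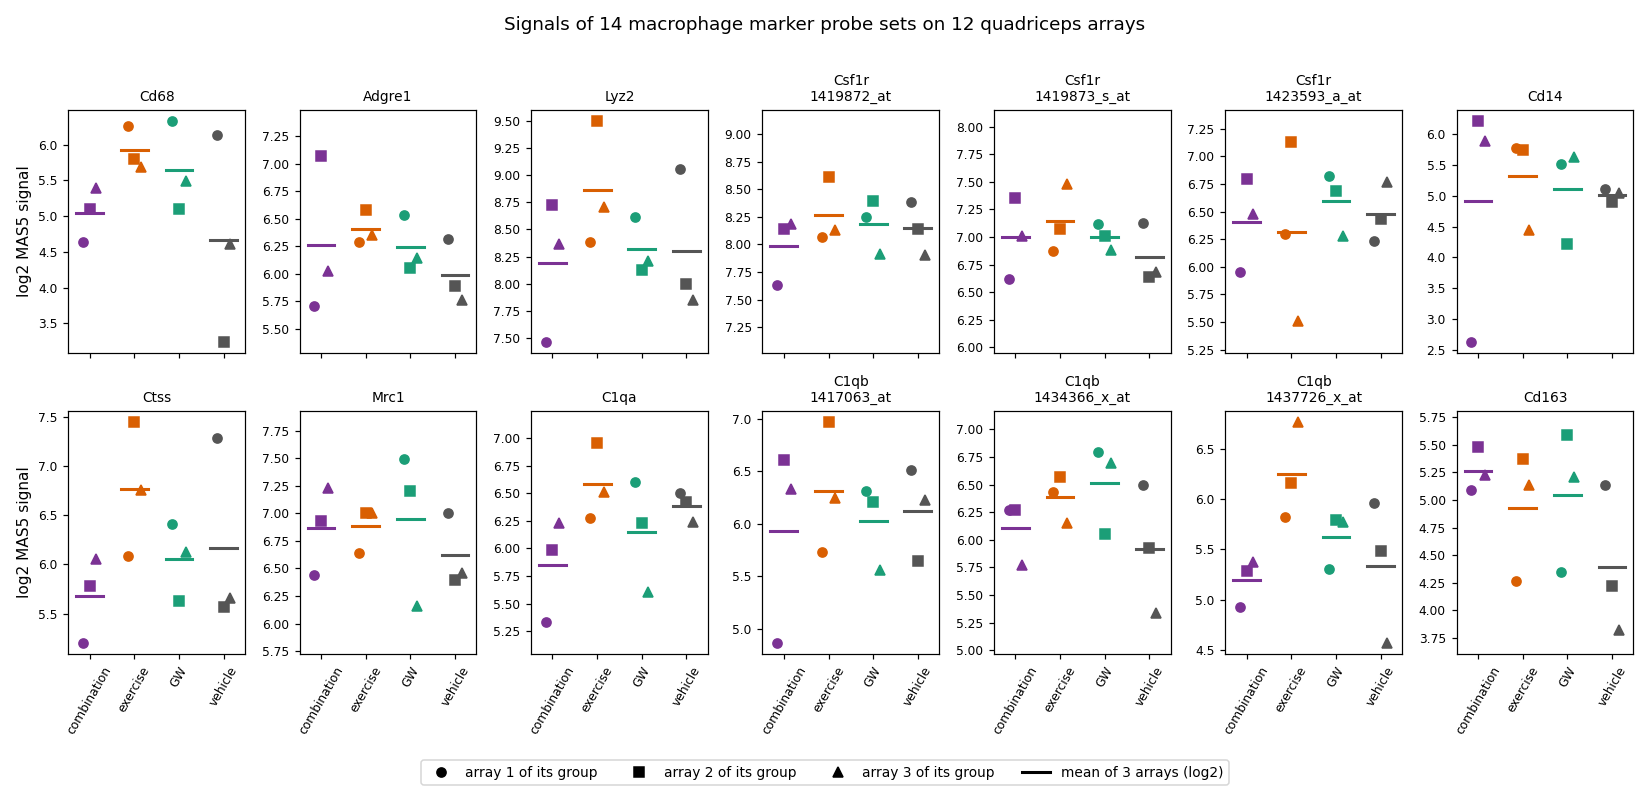
Log2 signal (vertical axis) of each of the 14 macrophage probe sets in the combination, exercise, GW and vehicle groups (horizontal axis), with a symbol for each of the 3 arrays of a group and a line at their mean. Combination array 1 is the lowest of all 12 in 8 probe sets, and exercise array 2 the highest in 6.

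Among the receptors of the cell surface, Csf1r encodes the receptor tyrosine kinase through which colony stimulating factor 1 and interleukin 34 keep macrophages alive. In the probe set 1419872_at it had signals of 198, 282 and 291 in the combination, 268, 390.2 and 279.6 in exercise, 304, 337 and 241 in GW, and 335, 282 and 239.8 in vehicle. All groups overlapped. Means were 257 ± 51.1 in the combination, 313 ± 67.4 in exercise, 294 ± 48.6 in GW and 286 ± 47.9 in vehicle (SD, n = 3 each). Against vehicle, the log2 fold change of exercise was 0.12 ± 0.20 (SE; limma adjusted p = 0.87) with a 95% interval of -0.29 to 0.54. No other member had a smaller standard error. The probe set 1419873_s_at ranged from 98.4 in combination array 1 to 179 in exercise array 3 and had 0.33 ± 0.22 (adjusted p = 0.626). The probe set 1423593_a_at ranged from 45.6 in exercise array 3 to 140.3 in exercise array 2 and had -0.17 ± 0.34 (0.903). Across the 12 arrays the probe sets of Csf1r correlated with each other at Pearson r of 0.50, 0.49 and -0.10, so the last of these pairs did not vary together.

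Of the ligands of this receptor, Csf1 was tested in 4 probe sets and Il34 lay below the filter. For training averaged over both drug states the log2 fold changes of Csf1 lay between -0.21 and 0.15. The smallest limma adjusted p of Csf1 in the 8 comparisons was 0.635.

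Adgre1 encodes F4/80, an adhesion receptor by which mouse macrophages are commonly recognised. Its signals were 52.2, 134 and 65.2 in the combination, 78.2, 95.7 and 81.5 in exercise, 92.4, 66.5 and 70.7 in GW, and 79.6, 59.5 and 54.2 in vehicle. Combination arrays held both the lowest and the highest of the 12 values. Exercise lay 0.42 ± 0.31 above vehicle on the log2 scale (adjusted p = 0.665), with vehicle array 1 inside the range of exercise.

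Cd14 encodes a co-receptor that hands bacterial lipopolysaccharide to Toll-like receptor 4. Its signals were 6.19, 74.4 and 59.3 in the combination, 54.6, 53.7 and 21.9 in exercise, 45.6, 18.5 and 49.7 in GW, and 34.4, 29.8 and 33.0 in vehicle. The vehicle arrays lay close together while each other group held 1 array far below its other two. The gene had the widest range over the arrays and the largest standard error of the 14 probe sets (0.75 in log2 fold changes between groups). Without combination array 1, the log2 fold change of the combination against vehicle was 1.04 (adjusted p = 0.549), against -0.10 with all arrays (0.982). Its partner Tlr4 had means of 29.0 in the combination, 47.9 in exercise, 37.1 in GW and 17.8 in vehicle. Exercise lay 1.58 ± 0.48 above vehicle (log2; unadjusted p = 0.00523, adjusted p = 0.297), with the 3 exercise arrays above the 3 vehicle arrays, which were near or below background. In this comparison the groups were apart, in either direction, in 17.4% of all probe sets tested. GW lay 1.18 ± 0.48 above vehicle (limma adjusted p = 0.738), and the interaction of Tlr4 was -1.95 ± 0.68 (0.707). For training averaged over both drug states the value was 0.60 ± 0.34 (0.605).

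The scavenger receptors Mrc1 and Cd163 mark resident macrophages in many tissues. Mrc1, the mannose receptor, had signals of 86.8, 122 and 150.3 in the combination, 100, 128 and 128 in exercise, 180.0, 147 and 71.4 in GW, and 128, 84.1 and 88.2 in vehicle. The groups overlapped throughout. Its log2 fold changes against vehicle were 0.25 in the combination, 0.26 in exercise and 0.33 in GW, each ± 0.31 (adjusted p between 0.804 and 0.885). Cd163, which takes up haemoglobin bound to haptoglobin, had signals of 34.0, 44.6 and 37.5 in the combination, 19.2, 41.3 and 35.2 in exercise, 20.3, 48.2 and 37.0 in GW, and 35.1, 18.6 and 14.1 in vehicle. Combination arrays were the most even, and 2 of 3 vehicle arrays were below the background level. The combination lay 0.88 ± 0.49 above vehicle (log2; adjusted p = 0.576), the highest value of the 14 members in that comparison, with vehicle array 1 inside the range of the combination.

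Lyz2, Ctss and Cd68 encode proteins of the lysosome. The product of Lyz2 is lysozyme M, which cuts the bacterial cell wall. Its signals were 177, 424 and 329.7 in the combination, 333, 722 and 418 in exercise, 392, 279 and 296 in GW, and 533, 255 and 231 in vehicle. Exercise array 2 and vehicle array 1 stood highest and combination array 1 lowest. Means were 310.2 ± 125 in the combination, 491 ± 205 in exercise, 322 ± 60.6 in GW and 339.8 ± 168 in vehicle (SD, n = 3 each). Exercise lay 0.56 ± 0.35 above vehicle (log2; adjusted p = 0.593), within the spread between pools. Lyz1, its neighbour on the chromosome and a close copy, followed Lyz2 over the 12 arrays in 2 probe sets (Pearson r of 0.86 and 0.80) and not in the other, which lay below the filter (-0.32). Signal of either gene could reach the other's probe sets, and this was not tested.

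Ctss encodes cathepsin S, the protease that trims the invariant chain before antigens load on MHC class II. Its signals were 36.8, 54.8 and 66.5 in the combination, 68.1, 174 and 108 in exercise, 85.2, 49.6 and 69.9 in GW, and 156, 47.3 and 50.4 in vehicle. The pools that were high in Lyz2 were high here too, and over the 12 arrays the pair had a Pearson r of 0.91, the highest of any pair of markers. The 3 combination arrays lay below the 3 exercise arrays, though only narrowly, at 66.5 for the highest combination array and 68.1 for the lowest exercise array. The log2 fold change of the combination against exercise was -1.08 ± 0.44 (adjusted p = 0.485), with a 95% interval of -2.02 to -0.15.

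Cd68 encodes a membrane glycoprotein of late endosomes and lysosomes. Its signals were 24.9, 34.4 and 42.2 in the combination, 76.7, 55.8 and 51.7 in exercise, 80.5, 34.2 and 44.9 in GW, and 70.2, 9.48 and 24.5 in vehicle. Exercise arrays all lay above combination arrays, and vehicle array 1 fell among the exercise arrays. Exercise had a log2 fold change of 1.25 ± 0.57 against vehicle, 2.38-fold, the largest of the set in that comparison. It did not pass (unadjusted p = 0.0446, adjusted p = 0.471), and vehicle array 2 lay below background at 9.48. Without that array the log2 fold change was 0.54 (adjusted p = 0.822), and without vehicle array 1 it was 1.99 (0.256).

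C1qa and C1qb encode chains of C1q, which starts the classical complement pathway, and lie on chromosome 4 with only C1qc annotated between them (GRCm38.p6). C1qa had signals of 40.3, 63.5 and 75.3 in the combination, 77.6, 124 and 91.4 in exercise, 97.1, 75.2 and 48.8 in GW, and 90.4, 85.6 and 75.4 in vehicle. It was the sole member in which the combination arrays lay below both exercise and vehicle. The margin over vehicle was narrow, at 75.3 for the highest combination array and 75.4 for the lowest vehicle array. The log2 fold change of the combination was -0.73 ± 0.30 against exercise (adjusted p = 0.486) and -0.53 ± 0.30 against vehicle (0.582). For the drug averaged over both training states it was -0.48 ± 0.21 (unadjusted p = 0.037, adjusted p = 0.566).

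C1qb gave 3 different accounts. In 1417063_at its signals were 29.2, 97.4 and 80.3 in the combination, 53.0, 125 and 75.7 in exercise, 79.5, 74.0 and 47.3 in GW, and 91.3, 50.0 and 74.7 in vehicle, and all groups overlapped. In 1434366_x_at they were 77.2, 77.4 and 54.5 in the combination, 86.4, 94.8 and 71.1 in exercise, 111, 66.4 and 104 in GW, and 90.1, 60.8 and 40.4 in vehicle, again with overlap. In 1437726_x_at they were 30.4, 38.9 and 41.5 in the combination, 56.8, 71.6 and 109 in exercise, 39.4, 55.5 and 54.8 in GW, and 62.3, 44.6 and 23.7 in vehicle. There the exercise arrays all lay above the combination arrays. They lay above the GW arrays only narrowly, at 56.8 against 55.5, and exercise against GW was not among the comparisons. Against vehicle the log2 fold changes of exercise were 0.19 ± 0.43, 0.47 ± 0.30 and 0.92 ± 0.37 in this order (adjusted p = 0.917, 0.607 and 0.415). Over the arrays, the first correlated at r = 0.02 with the second and at 0.31 with the last of them, and the remaining pair at 0.43. The suffix _x_at marks probe sets whose probes can match other transcripts. C1qc, the remaining chain, had means of 95.8 in the combination, 109 in exercise, 111 in GW and 93.3 in vehicle, with no fold change past the threshold (adjusted p between 0.795 and 0.985).

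Exercise against vehicle asked what training alone did to these markers. Their log2 fold changes were positive in 13 of 14 probe sets, between -0.17 and 1.25, with a median of 0.37. Over all probe sets 55.7% were positive and the median was 0.05. The probe sets vary together, so that 13 of 14 is not 13 independent observations. At an unadjusted p under 0.05 there were 2 of 14 probe sets (Cd68 and 1 of C1qb), or 14.3%, against 10.4% of all probe sets tested. None of the 14 had exercise and vehicle arrays apart, as 17.4% of all probe sets tested did. The median was 0.25 without exercise array 2 or without vehicle array 3, and 0.53 without vehicle array 1. Exercise arrays also stood higher in muscle fibre markers, whose summed signal ranged from 217469 to 223323 in exercise and from 181442 to 186028 in vehicle. Of 19 probe sets of fibroblast and matrix genes, 16 had a positive log2 fold change in this comparison, with a median of 0.26, and their summed signal ranged from 10450.4 to 11949 in exercise and from 8964 to 11255 in vehicle. Of 19 probe sets of endothelial genes, 14 were positive, with a median of 0.32, and their summed signal ranged from 3273 to 3667 in exercise and from 2729 to 2954 in vehicle. The part of these lists in the macrophage values was not tested.

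**Figure D2:**
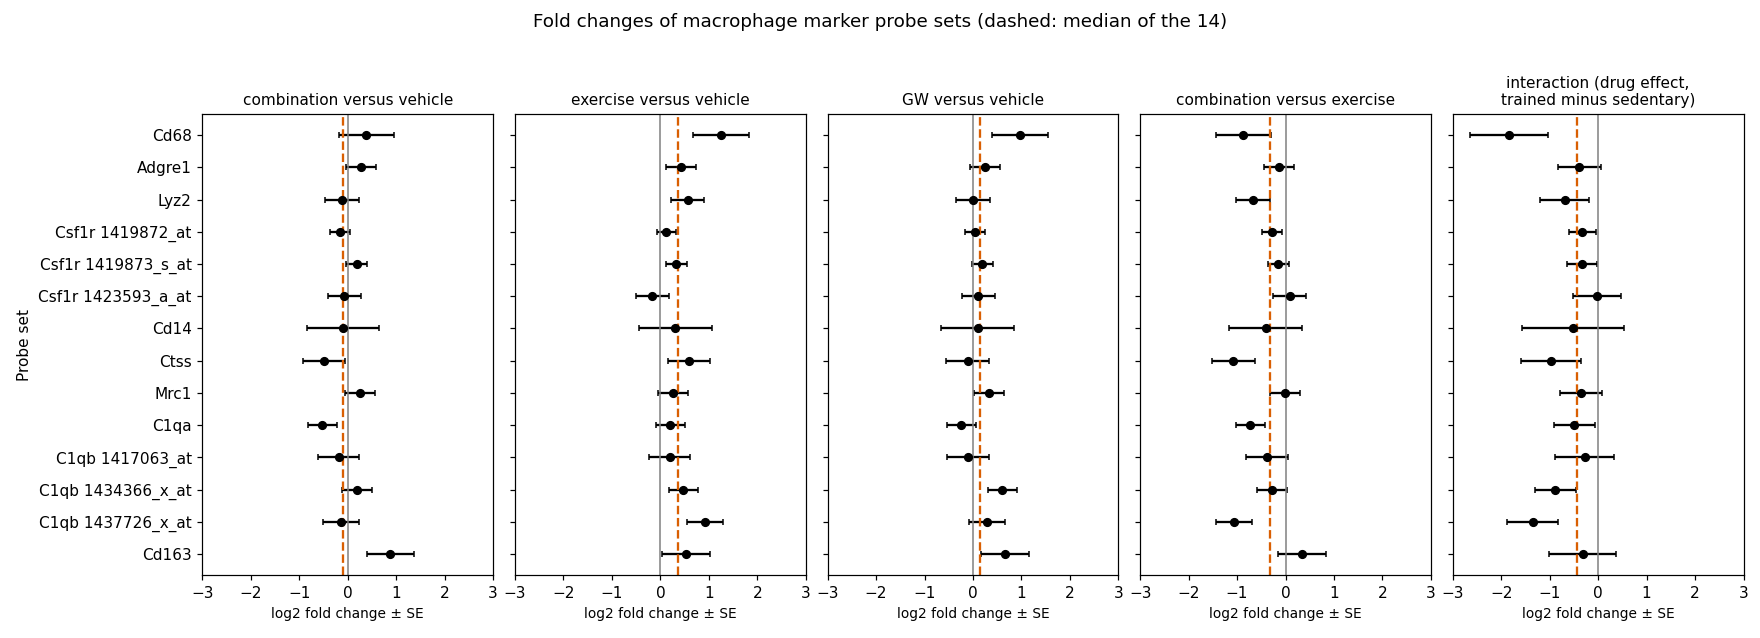
Log2 fold change ± SE (horizontal axis, limma on all 12 arrays) of each of the 14 probe sets (vertical axis) in 5 comparisons, with a dashed line at the median of the 14. Values against vehicle lie mostly right of 0 for exercise (median 0.37) and on both sides for the combination (-0.09), and every value of the interaction lies left of 0 (median -0.44).

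GW against vehicle gave 11 of 14 positive values and a median of 0.15, against 52.6% positive and 0.02 over all probe sets. No member had an unadjusted p under 0.05, against 6.42% of those tested. Without vehicle array 1 the median was 0.40, and it was 0.23 without GW array 3 and 0.04 without GW array 1. None of the 14 had GW and vehicle arrays apart, as 11% of all probe sets tested did. The combination against vehicle gave 6 positive and 8 negative values with a median of -0.09. There it turned with 1 array, to 0.29 without combination array 1 and to 0.22 without vehicle array 1, while it was -0.21 without combination array 2. Also 0 members had an unadjusted p under 0.05, against 9.98%. C1qa alone had its groups apart (lower, as 8.88% of all probe sets tested had).

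The combination against exercise asked what the drug did in trained muscle. Here 12 of 14 values were negative, with a median of -0.33, against 46.6% positive and a median of -0.03 over all probe sets. In 4 of 14 probe sets, or 28.6%, the combination arrays all lay below the exercise arrays, as in 8.21% of all probe sets tested. These were Cd68, Ctss, C1qa and 1437726_x_at of C1qb, which do not vary independently of each other. At an unadjusted p under 0.05 there were 3 of 14 (21.4%), against 9.18%, and none passed adjustment. The median rested on single pools. It was -0.03 without combination array 1, -0.18 without exercise array 2 and -0.63 without combination array 2. Fibroblast and matrix genes had positive values in 4 of 19 probe sets here, with a median of -0.26, and their summed signal ranged from 8581 to 12896 in the combination and from 10450.4 to 11949 in exercise. Muscle fibre genes had positive values in 1 of 16 probe sets, with a median of -0.07, and fat cell genes in 13 of 15, with a median of 0.53. The part of these lists in the macrophage values was not tested. The combination against GW had 12 of 14 negative values and a median of -0.19, against 50.4% positive and 0 over all probe sets, with 0 members at an unadjusted p under 0.05 against 5.75%. Groups were apart in 0 members, against 10.5% of all probe sets tested. Its median was 0.09 without combination array 1 and -0.39 without combination array 2.

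In the interaction all 14 values were negative, from -1.84 to -0.02, with a median of -0.44. Over all probe sets 46.1% were positive and the median was -0.04. Positive values were also few in muscle fibre genes (1 of 16 probe sets, median -0.2) and fibroblast and matrix genes (5 of 19, -0.25). Other macrophage and myeloid genes had 17 of 64 (-0.53), while fat cell genes had 12 of 15 (0.58). The part of these lists in the macrophage values was not tested. Cd68 had -1.84 ± 0.81 (adjusted p = 0.727) and 1437726_x_at of C1qb had -1.35 ± 0.53 (0.723). At an unadjusted p under 0.05 there were 2 of 14 (14.3%), these same 2 probe sets, against 6.79%. The median was -0.19 without combination array 1 and -0.71 without combination array 2. Training averaged over both drug states, 6 arrays against 6, had 11 of 14 positive values (54.1% over all probe sets), a median of 0.10 and 0 members at an unadjusted p under 0.05, against 9.09%. For the drug 7 of 14 were positive (49.8% over all probe sets) and the median was -0.05, with 1 member at an unadjusted p under 0.05 (C1qa, 7.14%) against 8.37%. No member had all 6 arrays of one kind above or below the other 6, as 0.376% of probe sets had for training and 0.611% for the drug. The median for training was 0.28 without combination array 1 and 0.02 without exercise array 2, and that for the drug was 0.12 without combination array 1 and -0.15 without combination array 2 or vehicle array 2. The comparisons share arrays, so their values are not independent of each other.

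**Figure D3:**
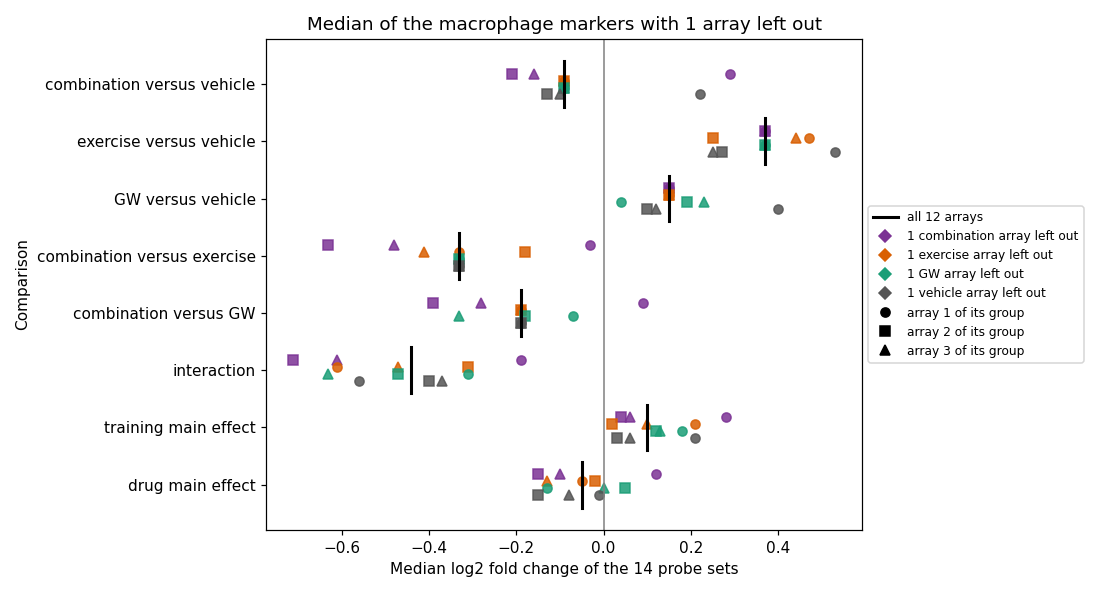
Median log2 fold change of the 14 macrophage probe sets (horizontal axis) in 8 comparisons (vertical axis), with a black bar for all 12 arrays and a symbol for each fit with 1 array left out. Without combination array 1 (purple circle) the median is -0.03 in the combination against exercise, where all arrays give -0.33, and 0.29 in the combination against vehicle, where all arrays give -0.09.

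The variation that the groups did not account for was shared by the markers. Over 12 arrays, 80 of 85 pairs of probe sets of different genes correlated positively, with a median Pearson r of 0.47 and a range of -0.37 to 0.91. After the group means were taken out the median was 0.49, so pools of the same group differed in the same way. These pairs share arrays and scaling, and the values are given as a description. Pairs of other probe sets were not examined in this way. The means of other gene lists correlated with that of the markers at r from -0.46 (Csf1) to 0.88 (fibroblast and matrix genes). Lyz2 followed the mean of the other markers most closely (r = 0.95), then C1qb in 1417063_at (0.86) and Ctss (0.80). Csf1r in 1423593_a_at (0.26) and Cd163 (0.29) followed it least.

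By array, the mean of the centred log2 signals of the 14 probe sets was -0.71, 0.22 and 0.06 in the combination, 0.03, 0.59 and 0.16 in exercise, 0.26, -0.03 and -0.07 in GW, and 0.32, -0.42 and -0.41 in vehicle. Combination array 1 held the lowest signal of 8 probe sets and exercise array 2 the highest of 6. Summed signals ranged from 953 to 1721 in the combination, from 1467 to 2352 in exercise, from 1332 to 1778 in GW and from 1161 to 1922 in vehicle. The ranges of all 4 groups overlapped. Beta-actin gives a sign of RNA quality in the ratio of its 3′ probe set to its 5′ probe set, which was 0.826 in combination array 1, 0.816 in exercise array 2 and 1.104, the highest of the 12, in vehicle array 1. The same ratio for Gapdh was 0.9, 0.896 and 0.89 on these arrays in this order. Over all arrays it ranged from 0.821 in GW array 2 to 0.94 in exercise array 1, so vehicle array 1 did not stand out in it. The part of RNA quality in the marker levels was not tested.

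**Figure D4:**
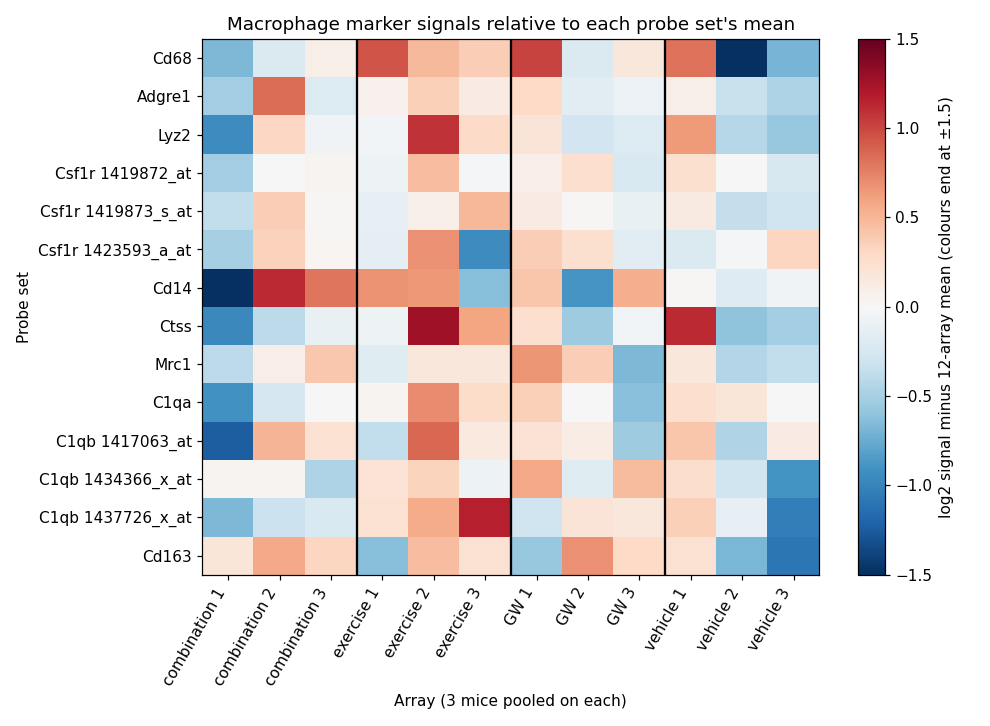
Log2 signal of each macrophage probe set (vertical axis) minus its mean over the 12 arrays (colour), by array (horizontal axis, groups divided by black lines). Combination array 1 is among the 3 lowest arrays in 12 of 14 rows, vehicle array 2 in 9 and vehicle array 3 in 8, while exercise array 2 is among the 3 highest in 10.

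Outside the markers, the 10 genes whose signal was most like the mean of the 14 probe sets over the 12 arrays were Tmsb10 (Pearson r = 0.90), C1qc (0.89), Ndufs4 in 1 probe set (0.89), Plekha4 (0.88), Grn (0.86), Chrnb1 (0.86), Mgp (0.85), Ugdh (0.84), Fxyd5 (0.84) and Lpin1 (0.84). C1qc encodes the remaining chain of C1q and Grn encodes progranulin, a protein of the lysosome that macrophages make in quantity. Chrnb1, by contrast, encodes a subunit of the acetylcholine receptor of muscle fibres, Mgp a protein of matrix and vessel wall, and Lpin1 a lipid phosphatase abundant in muscle. Grn had signals of 500.1, 663 and 593 in the combination, 587, 754 and 711 in exercise, 636, 589 and 549 in GW, and 769, 594 and 511 in vehicle. Its lowest array was again combination array 1, and vehicle array 1 and exercise array 2 were its highest.

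A further list of 46 macrophage and myeloid genes had probe sets for 42, of which 15 had a mean signal below background, among them Fcgr1, Mpeg1 and Siglec1. Of its 30 probe sets tested, 0 passed in any comparison (limma), and 4 had an unadjusted p under 0.05 in exercise against vehicle (10.4% of all probe sets tested had). Over its 64 probe sets, 45 had a positive log2 fold change in exercise against vehicle, with a median of 0.42, against 55.7% positive and a median of 0.05 over all probe sets. Its mean over the arrays had a Pearson r of 0.83 with that of the markers. Tyrobp, the adaptor through which many myeloid receptors signal, had signals of 35.0, 64.1 and 34.6 in the combination, 73.5, 81.4 and 52.2 in exercise, 34.7, 43.4 and 23.6 in GW, and 63.6, 20.4 and 25.7 in vehicle. Exercise lay 1.08 ± 0.44 above vehicle (log2; unadjusted p = 0.028, adjusted p = 0.423), with vehicle array 1 again inside the range of exercise. The list of fibroblast and matrix genes had an r of 0.88 with the markers, that of muscle fibres 0.61, that of fat cells 0.40, and that of T and NK cells 0.22. Fat cell markers were highest in combination arrays 2 and 3, where their summed signals were 12278 and 14695, against 6135 in combination array 1. Their part in the macrophage values was not tested. The plot of marker lists by array sets these side by side.

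**Figure D5:**
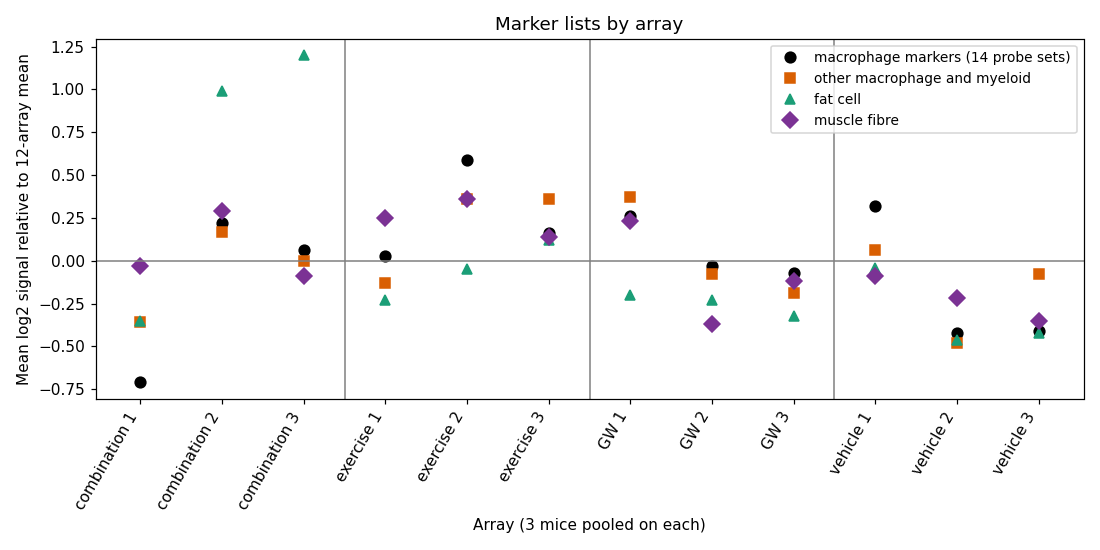
Mean log2 signal relative to the 12-array mean (vertical axis) of macrophage markers, other macrophage and myeloid genes, fat cell markers and muscle fibre markers on each array (horizontal axis, groups divided by lines). Macrophage markers run from -0.71 in combination array 1 to 0.59 in exercise array 2, while fat cell markers are highest in combination arrays 2 and 3 (0.99 and 1.20).

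In pathways around the markers, antigen presentation through MHC class II had 6 probe sets tested, of which 0 passed by limma and 1 had an unadjusted p under 0.05 in the combination against exercise. Cd74, the invariant chain that Ctss trims, had means of 423 in the combination, 546 in exercise, 437 in GW and 457 in vehicle, with -0.39 ± 0.15 for the combination against exercise (unadjusted p = 0.019, adjusted p = 0.458). Of 21 probe sets of lysosomal proteases and their partners, Ctss among them, 0 passed by limma and 4 had an unadjusted p under 0.05 in the combination against exercise. Over 20 lists, 186 probe sets of 131 genes outside the markers were tested, and the sole call in any of the 8 comparisons was on Slc40a1 (limma). At an unadjusted p under 0.05 there were 33 in exercise against vehicle (17.7%, against 10.4% of all probe sets tested) and 28 in the combination against exercise (15.1%, against 9.18%). Of the 33, 12 belonged to the muscle fibre list and 6 to the endothelial list. GW against vehicle had 11 (5.91%, against 6.42%).

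Slc40a1 encodes ferroportin, the iron exporter by which macrophages release iron from red cells they have taken up. It is also made by other cells. In 1417061_at its signals were 285, 250.3 and 221 in the combination and 219.6, 302 and 213 in GW, against 419, 383 and 368 in exercise and 372, 348 and 315 in vehicle. All 6 arrays of drug-treated mice lay below all 6 arrays of vehicle-treated mice, as in 0.214% of all probe sets tested. Averaged over both training states the drug effect was -0.57 ± 0.11 on the log2 scale (adjusted p = 0.036 by limma). The other probe set, 1448566_at, had -0.20 ± 0.12 (0.712), with overlap between the groups. The call ended without combination array 2 (adjusted p = 0.111) or 3 (0.0895), exercise array 1 (0.101), 2 (0.0899) or 3 (0.0736), GW array 1 (0.0651) or 3 (0.117), or vehicle array 1 (0.0813) or 2 (0.103), and without an intensity trend (0.179). In these fits the log2 fold change lay between -0.59 and -0.53. Over all its alternatives the adjusted p lay between 0.00923 and 0.179. Its level did not follow the macrophage markers over the arrays (Pearson r = 0.10).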

How the data were processed

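The authors deposited intensity values, linear and computed with MAS5 per the submitters' processing notes. The sources used here do not give its version. With 2% trimmed at each end, the mean of each array was 199.98. With 3 arrays in a group, their number sets the precision. Symbols were those of the platform annotation (20393 probe sets with 1 symbol, 691 with several, 1606 with none; 0 of 20364 found in RefSeq changed), and no member symbol stood on a probe set with several.

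The log2 signals were used without pseudocount. After removal of 64 controls, the upper 60% of 22626 probe sets by mean (signal above 28.4) were fitted to the 4 groups with lmFit and eBayes with an intensity trend (R 4.3.3, limma 3.58.1, 8 residual degrees of freedom), with Benjamini-Hochberg adjustment over all probe sets tested. On simulated data with 22626 probe sets, the exercise against vehicle comparison recovered 55.6% of 2-fold and 22.4% of 1.5-fold changes. These changes were set in probe sets drawn at random from those past the filter, and were more numerous than the calls in the data. The median standard error in this comparison was 0.34 for the members and 0.21 for all probe sets tested. The shares recovered therefore do not give the recovery for the markers. List medians are over all probe sets. Shares of positive values and medians given over all probe sets include those below the filter, which all members passed. Over the probe sets tested, the share positive lay between 48.7% and 51.2% in the 8 comparisons, and the median between -0.01 and 0.01.

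Members, gene lists and tests were chosen with earlier results of these data known. All members were described. From other lists, genes called in any comparison were named, and up to 3 per list with the smallest p for training. The 10 genes most like the markers were named by Pearson correlation. Il34, Lyz1 and genes given as examples of low signal were named after their values were seen. Deviations of arrays with the same number correlated weakly, at r between -0.05 and 0.10 (median 0.01). Those of arrays with different numbers correlated at r between -0.08 and 0.06 (median 0). Since 8 arrays correlated best with an array of their own number, whether the numbers pair the arrays is not known.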

Additional observations from a re-analysis of the deposited data

How the results depend on the processing

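The 14 macrophage probe sets were refitted under 21 alternatives. None of the 2310 recomputed values passed the threshold in any comparison. In 120 of them the sign differed from that with all arrays. The value moved by over 1 SD in 4, all of them Cd14 without combination array 1. With a pseudocount the median of the combination against vehicle was 0.02 in place of -0.09.

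Counts over all probe sets moved more, and the cause was not tested. Exercise against vehicle (2) gave 0 with quantile or cyclic loess normalization, without an intensity trend or with a robust prior, 33 with only the groups compared, and 0 to 20 with 1 array left out. GW against vehicle (13) gave 7 without a trend and 7 with only the groups compared, and 10 to 18 with 1 array left out. The combination against vehicle (21) gave 7 without a trend and 9 to 52. The combination against exercise (22) gave 4 without a trend, 40 with only the groups compared and 8 to 83. The combination against GW (0) gave 1 with the array number as replicate block and 0 to 35, and the interaction (0) gave 1 with the block and 0 to 9. Training averaged over both drug states (2) gave 0 with either normalization, without a filter, without a trend or with the block, and 0 to 23. The drug effect (43) gave 9 without a trend and 20 to 74. The block changed no member's call, and 8 of 12 arrays correlated best with an array of their own number. The median standard error of the members was 0.34 in comparisons of a pair of groups, 0.50 in the interaction and 0.24 for training and for the drug averaged over the other factor.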

Other observations

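Most of the markers of other immune cells gave low signals. Of 14 T and NK cell genes with a probe set, 9 had a mean signal below background, Cd3d, Cd3e and Cd3g among them. So did 5 of 7 B cell genes, including Cd79a and Ms4a1, and 7 of 11 neutrophil genes, including S100a8 and S100a9. Other members of these lists were higher. Ighm of the B cell list had group means from 953 to 1183 in 1427329_a_at, and Thy1 of the T and NK cell list from 124 to 172. The share of all genes below background was not counted. The cut that kept the upper 60% of probe sets, 28.4, lay close to the background of 23.5. Among 19 genes of chemokines and their receptors 12 were below background, with Ccl2, Ccr2 and Cx3cr1 among them. Of 20 genes of macrophage states, 9 were, including Arg1, Nos2, Il1b and Il6.

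Igf1, a growth factor that macrophages and other cells of muscle make, had means of 173 in the combination, 251 in exercise, 153 in GW and 165 in vehicle in 1437401_at. Exercise lay 0.63 ± 0.21 above vehicle (log2; limma adjusted p = 0.33), and the other probe sets had 0.60 ± 0.30 (0.505) and 0.33 ± 0.21 (0.59).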
